A study of Mus musculus with 18 samples.

Results

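The granule proteases of mast cells were followed as 6 genes of 20878 in the expression matrix: the tryptases *Tpsb2* and *Tpsab1*, the chymases *Cma1*, *Mcpt4*, and *Mcpt2*, and the carboxypeptidase *Cpa3*. They were chosen by name, and with results of these tumors known: their lower levels in Balb/c ATRX KD tumors led to the choice. All 6 have a row in the matrix and all 6 passed the filter on low values in each comparison. The data were RNA sequencing values of 18 tumors, each from a different mouse, grown from K7M2 cells, an osteosarcoma line that was derived from a Balb/c mouse. Cells carried either a control shRNA (ATRX CT) or an shRNA against *Atrx* (ATRX KD) and were placed under the skin of female mice 6 to 8 weeks old. Balb/c mice (Balb/cJ) are immunocompetent and syngeneic to the cells. NSG mice (NOD.Cg-Prkdc scid Il2rg tm1Wjl/SzJ) lack T, B, and NK cells and keep mast cells. There were 4 Balb/c ATRX CT tumors (mice 41, 43, 44, and 45), 4 Balb/c ATRX KD tumors (mice 56, 58, 59, and 60), 5 NSG ATRX CT tumors (mice 1 to 5), and 5 NSG ATRX KD tumors (mice 26 to 30). In every group the grafted cells were 1 line, and mice were housed in cages of 5 with a whole cage receiving 1 kind of cells. The labels give no cage, so cage and knock-down cannot be told apart.

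Mast cells are long-lived tissue cells that store proteases in granules, bound to the proteoglycan serglycin and its heparin chains. On activation through the IgE receptor or through Mas-related receptors they release tryptases, chymases, and carboxypeptidase A3. Tryptases cleave after basic residues and many, though not all, chymases after aromatic residues. Carboxypeptidase A3 removes residues from the end of a peptide. In the mouse, *Cma1*, *Mcpt4*, *Tpsb2*, *Tpsab1*, and *Cpa3* are typical of connective tissue mast cells, such as those of skin, whereas *Mcpt1* and *Mcpt2* are typical of mucosal mast cells.

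Levels are given in FPKM, the number of fragments relative to transcript length and library size, so that levels of different genes can be compared per length. Differences between groups are given on the log2 (FPKM + 1) scale, which understates changes of low genes. The estimated depth was between 14850000 and 25100000 fragments per library, at which 3 fragments, the floor used here, came to between 0.128 and 0.217 FPKM for *Tpsb2*. The target of the shRNA, *Atrx*, had a level of 17.6 ± 4.99 FPKM with ATRX CT and 10.2 ± 3.47 FPKM with ATRX KD in NSG tumors (SD, n = 5 each; adjusted p = 0.0610 in limma). In Balb/c mice it was at 17.6 ± 7.12 and 14.0 ± 6.54 FPKM (SD, n = 4 each; adjusted p = 0.999 in limma). Its groups overlapped in both hosts, so *Atrx* could not check the labels. The hosts differed in strain and immune status, and also in Y-linked genes, although all mice are described as female. These summed to between 24.2 and 34.3 FPKM in NSG ATRX CT tumors and between 13.1 and 21.2 FPKM in NSG ATRX KD tumors. The NSG groups did not overlap, and Balb/c tumors were at 0.0115 FPKM or less. The K7M2 line is listed as female, and the part of this difference between NSG groups in the protease levels was not tested. Some libraries stood apart: keratinocyte markers summed to 122 FPKM in Balb/c ATRX CT mouse 45, and skeletal muscle markers to 370 FPKM in NSG ATRX CT mouse 3 and 498 FPKM in NSG ATRX KD mouse 30.

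The tryptase genes lie next to each other on chromosome 17 of mm10 and are transcribed away from each other. *Tpsab1* is on the minus strand at chr17:25343245-25345562 with 5 exons, and *Tpsb2* on the plus strand at chr17:25366333-25368092 with 6 exons. They are 20770 bp apart with 0 genes between them. The RefSeq annotation used by the authors lists *Tpsab1* with a noncoding transcript, and RefSeq classes it as a transcribed pseudogene of the reference strain. GENCODE M21 models of the same build give it a coding sequence. The chymase genes lie within 120860 bp of chromosome 14, with 5 other genes between them: *Cma1* at chr14:55941451-55944675 and *Mcpt4* at chr14:56059744-56062310, both on the minus strand, and *Mcpt2* at chr14:56042123-56044634 on the plus strand, each with 5 exons. *Cpa3*, with 11 exons, is on the minus strand of chromosome 3 at chr3:20215616-20242181.

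Because reads of 75 nt had to be placed on genes this similar, their closest coding windows of that length are shown. Capitals mark the bases at which the genes of a pair differ. The tryptase windows, towards the 3′ end of each gene (GRCm38, chr17:25367721-25367795, plus strand, and chr17:25343470-25343544, minus strand), differ at 3 bases:
Tpsb2: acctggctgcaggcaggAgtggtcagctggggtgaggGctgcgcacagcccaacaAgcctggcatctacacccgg
Tpsab1: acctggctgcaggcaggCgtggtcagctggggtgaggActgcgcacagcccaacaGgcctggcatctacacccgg
The closest windows of 2 chymases (chr14:56061650-56061724, minus strand, and chr14:56042701-56042775, plus strand) differ at 9 bases:
Mcpt4: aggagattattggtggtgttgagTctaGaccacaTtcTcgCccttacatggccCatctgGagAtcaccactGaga
Mcpt2: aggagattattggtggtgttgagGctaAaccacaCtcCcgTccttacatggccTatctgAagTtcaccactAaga
Windows shared exactly with another gene were 0 for *Tpsb2*, *Tpsab1*, *Mcpt2*, and *Cpa3*, 1.67% for *Cma1* (with *Gm48934*), and 2.51% for *Mcpt4* (with *Cma2*). How reads from either host's genome aligned to these genes of the reference strain was not tested.

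Promoters are shown for the 3 of the 6 genes that had a sequence in the promoter set used here. Each is the 250 bases before the gene's start (RefSeq, GRCm38.p6, gene strand, all on the minus strand of their chromosome), and capitals mark GATAA on either strand, the core of the motif bound by GATA factors such as GATA2, which mast cells require:
Cma1, chr14:55944676-55944925: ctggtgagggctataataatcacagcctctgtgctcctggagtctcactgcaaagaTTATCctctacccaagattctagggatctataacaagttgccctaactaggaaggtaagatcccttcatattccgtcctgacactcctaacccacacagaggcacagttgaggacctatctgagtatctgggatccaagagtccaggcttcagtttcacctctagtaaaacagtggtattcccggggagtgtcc
Mcpt4, chr14:56062311-56062560: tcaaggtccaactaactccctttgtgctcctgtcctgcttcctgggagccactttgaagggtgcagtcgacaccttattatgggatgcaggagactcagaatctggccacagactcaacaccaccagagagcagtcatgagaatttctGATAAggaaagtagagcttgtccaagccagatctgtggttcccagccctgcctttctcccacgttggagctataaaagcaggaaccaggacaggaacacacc
Cpa3, chr3:20242182-20242431: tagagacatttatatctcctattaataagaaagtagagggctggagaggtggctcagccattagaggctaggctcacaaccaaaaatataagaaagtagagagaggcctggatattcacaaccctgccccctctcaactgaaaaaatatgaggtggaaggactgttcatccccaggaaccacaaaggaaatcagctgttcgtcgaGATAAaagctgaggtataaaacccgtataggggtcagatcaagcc
GATAA began 102 bases before the start of *Mcpt4* and 45 bases before that of *Cpa3*, and on the other strand 194 bases before that of *Cma1*. It was present in 22.6% of all 32851 promoters of this length. TATAAA on the gene strand, present in 7.59% of promoters, was found 32 bases before the start of *Mcpt4* and 31 bases before that of *Cpa3*, and not in the window of *Cma1*. CANNTG, the E-box, occurred in 66.2% of promoters, with 1 match for *Cma1*, 2 for *Cpa3*, and 0 for *Mcpt4*.

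Balb/c ATRX CT tumors held the highest mean level of all 6 proteases. *Tpsab1*, which encodes the tryptase also known as mast cell protease 7, was at 116, 76.5, 43.8, and 57.3 FPKM in Balb/c ATRX CT mice 41, 43, 44, and 45. It was at 10.2, 13.2, 5.38, and 26.0 FPKM in Balb/c ATRX KD mice 56, 58, 59, and 60. In NSG mice it was at 1.39, 2.75, 2.86, 3.77, and 5.31 FPKM in ATRX CT mice 1 to 5 and at 2.14, 5.62, 3.17, 3.87, and 2.40 FPKM in ATRX KD mice 26 to 30. Both NSG groups lay low and overlapped each other, and the Balb/c ATRX KD tumors lay between them and the Balb/c ATRX CT tumors, with mouse 59 inside the NSG range.

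*Tpsb2*, which encodes tryptase beta 2, was at 93.2, 59.7, 38.2, and 36.0 FPKM in Balb/c ATRX CT tumors and at 9.11, 14.6, 8.87, and 19.3 FPKM in Balb/c ATRX KD tumors, in the same order of mice. Among NSG tumors it was at 12.5, 5.66, 7.30, 21.4, and 27.6 FPKM in ATRX CT tumors and at 11.0, 22.5, 20.6, 22.7, and 13.7 FPKM in ATRX KD tumors. The Balb/c ATRX CT tumors were above the 3 other groups, which overlapped one another. The order of the groups differed between the tryptases: the lowest group mean was that of Balb/c ATRX KD for *Tpsb2* and that of NSG ATRX CT for *Tpsab1*.

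*Cma1*, the mouse chymase closest to human chymase, was at 66.3, 40.5, 34.6, and 27.1 FPKM in Balb/c ATRX CT tumors and at 7.61, 14.5, 10.2, and 20.9 FPKM with ATRX KD. Among NSG tumors it was at 12.7, 4.68, 6.73, 26.0, and 33.5 FPKM in ATRX CT tumors and at 16.2, 23.1, 27.3, 32.7, and 16.5 FPKM in ATRX KD tumors. The Balb/c ATRX CT tumors overlapped the next group in the order of means, the NSG ATRX KD tumors, which was the case for *Cma1* and not for the other 5 proteases. *Mcpt4*, the main chymotrypsin-like protease of mouse connective tissue mast cells, was at 72.3, 50.3, 37.8, and 28.1 FPKM and at 8.66, 14.5, 10.1, and 24.7 FPKM in the Balb/c ATRX CT and ATRX KD tumors. Its NSG values were 11.4, 4.15, 4.29, 19.1, and 30.5 FPKM with ATRX CT and 13.6, 23.9, 23.6, 25.4, and 15.7 FPKM with ATRX KD. NSG ATRX CT mouse 5 was above Balb/c ATRX CT mouse 45 for both chymases, and both overlapped among the 3 groups other than Balb/c ATRX CT.

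*Cpa3*, which encodes the carboxypeptidase, was at 64.0, 44.6, 26.7, and 22.9 FPKM in Balb/c ATRX CT tumors and at 7.84, 9.89, 7.11, and 15.0 FPKM with ATRX KD. The NSG levels were 9.55, 3.60, 5.98, 16.6, and 22.0 FPKM in ATRX CT tumors and at 11.0, 17.4, 20.6, 19.5, and 13.0 FPKM in ATRX KD tumors. The Balb/c ATRX CT tumors were above the other tumors, with mouse 45 nearest to them. *Mcpt2*, the mucosal type chymase, was far lower than the other proteases: 2.37, 2.69, 2.07, and 1.39 FPKM in Balb/c ATRX CT tumors. It was listed at 0.11, 0, 0.12, and 0.17 FPKM in Balb/c ATRX KD tumors, each no higher than 3 fragments would give. In NSG mice *Mcpt2* was at 0.69, 0.061, 0.049, 1.79, and 0.60 FPKM in ATRX CT tumors, of which those of mice 2 and 3 were no higher than the floor, and at 0.61, 1.07, 0.36, 0.98, and 0.18 FPKM in ATRX KD tumors.

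**Figure D1:**
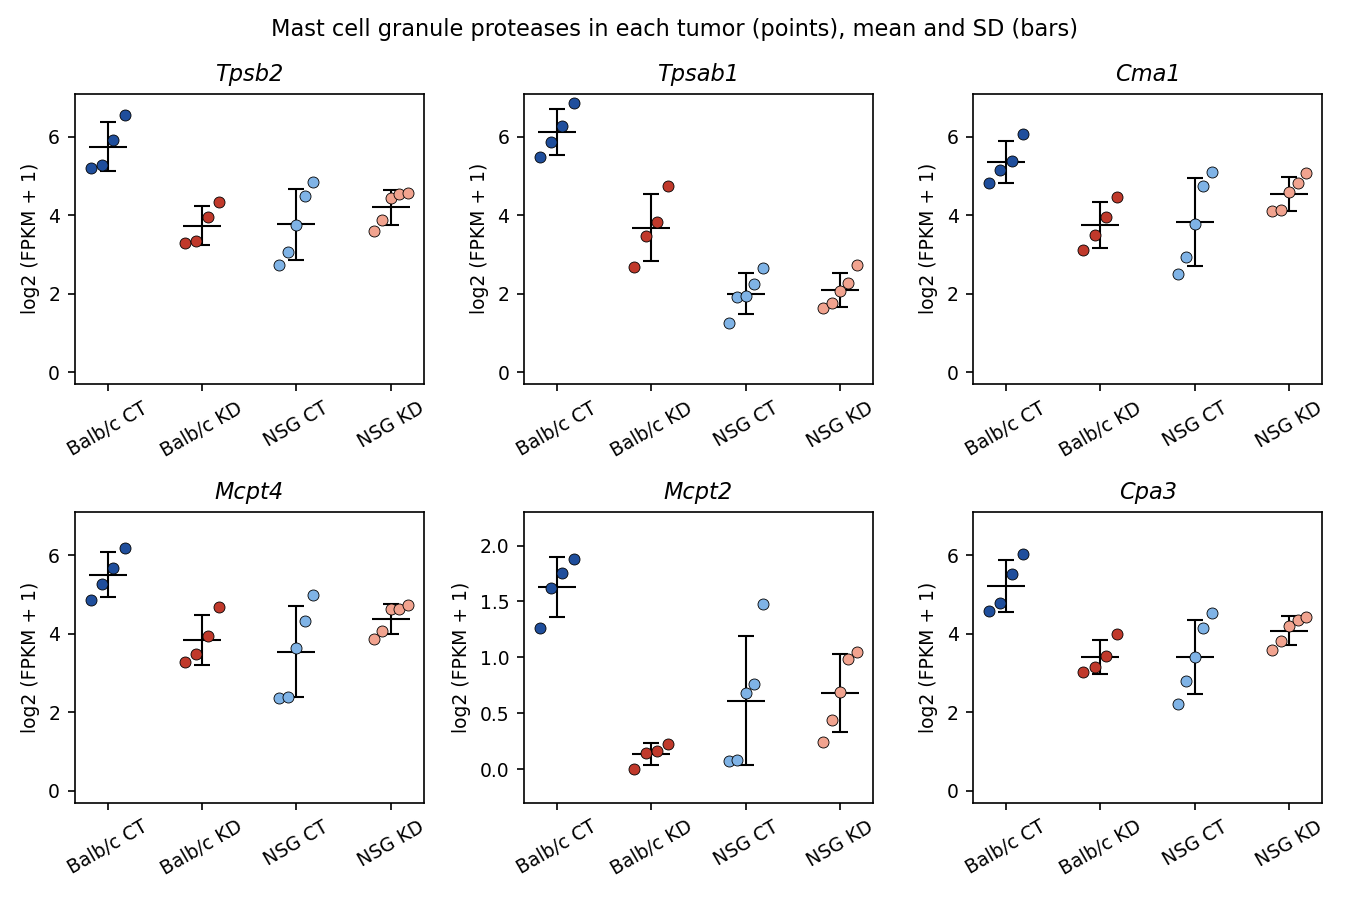
Level of each protease in log2 (FPKM + 1) on the vertical axis (*Mcpt2* on its own scale), by group on the horizontal axis. Points are the 18 tumors, horizontal bars the group means, and whiskers the SD (n = 4 for each Balb/c group, n = 5 for each NSG group). The Balb/c CT tumors are highest for each gene by mean, and *Tpsab1* is the gene with both NSG groups far down, at means of 2.01 and 2.10.

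Within Balb/c mice, all 6 proteases were lower in ATRX KD tumors and no group overlapped, from a mean of 56.8 ± 26.5 to 13.0 ± 4.96 FPKM for *Tpsb2* and from 39.5 ± 18.8 to 9.95 ± 3.55 FPKM for *Cpa3* (SD, n = 4 each). In RNA of bulk tumors, fewer mast cells and less protease RNA per mast cell cannot be told apart. On sequenced tumors, the study stained for tryptase and reported a lower share of positive cells with ATRX KD. Tryptase, the marker of that staining, is itself among the proteases followed here. The log2 differences, ATRX KD minus ATRX CT, were −2.44 ± 0.52 for *Tpsab1*, −2.01 ± 0.40 for *Tpsb2*, −1.82 ± 0.40 for *Cpa3*, −1.66 ± 0.42 for *Mcpt4*, −1.60 ± 0.39 for *Cma1*, and −1.49 ± 0.14 for *Mcpt2* (± standard error). Their median was −1.74, beside −0.0032 over the 14701 genes tested. Lower levels without overlap were found in 1.93% of all genes, and 0.0068% of genes were called lower (adjusted p under 0.05 and at least a 2-fold difference in limma). Since the genes were chosen from this comparison, the values are a description and no test is given for them. By the estimated depth, the *Mcpt2* levels rested on about 7 fragments in the 4 ATRX KD libraries and 152 in the 4 ATRX CT libraries. The gene passed the filter on low values through the ATRX CT tumors. The log2 (FPKM + 1) scale understates the change of this low gene, so its place in the order above is not one of size. By mean FPKM *Mcpt2* was 21.4-fold lower with ATRX KD, and the other proteases between 3.16-fold (*Cma1*) and 5.35-fold (*Tpsab1*) lower.

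Within NSG mice, 0 of the 6 proteases were called in limma, and the groups overlapped for all 6, where 7.5% of all genes did not overlap. The choice of genes did not rest on this comparison, but the host difference and the covariation of these tumors were known. The p-values for NSG tumors are therefore not fully independent of the choice. *Mcpt4* was at 13.9 ± 11.1 FPKM with ATRX CT and 20.4 ± 5.36 FPKM with ATRX KD (SD, n = 5 each), and *Tpsb2* at 14.9 ± 9.39 and 18.1 ± 5.38 FPKM. The log2 difference was 0.84 for *Mcpt4* (95% interval −0.17 to 1.85; adjusted p = 0.269 in limma) and 0.73 for *Cma1* (−0.27 to 1.72; adjusted p = 0.330 in limma). For *Cpa3* it was 0.66 (−0.18 to 1.51; adjusted p = 0.297 in limma). The lower bounds of these 3 intervals were close to 0, and their upper bounds allow for a higher level with ATRX KD. *Tpsb2* differed by 0.43 (−0.40 to 1.27; adjusted p = 0.503 in limma). *Tpsab1* differed by 0.093 (−0.48 to 0.66; adjusted p = 0.858 in limma) and *Mcpt2* by 0.066 (−0.50 to 0.63; adjusted p = 0.904 in limma). Exact permutation tests (two-sided) gave p from 0.183 for *Cpa3* to 0.849 for *Mcpt2*. Of all 14654 genes tested in NSG mice, 0.464% were called, and 26.3% had an unadjusted p under 0.05, where 0 of the 6 proteases did. The ATRX CT tumors were the more widely spread: mice 2 and 3 were lowest and mouse 5 highest of all 10 NSG tumors for *Tpsb2*, *Cma1*, *Mcpt4*, and *Cpa3*. The size of these differences moved with single ATRX CT tumors. Without mouse 2 they were 0.55 for *Mcpt4*, 0.40 for *Cma1*, 0.36 for *Cpa3*, and 0.17 for *Tpsb2*, and without mouse 5 they were 1.20, 1.05, 0.94, and 0.70. Without mouse 3, which held the muscle signal, they were 0.56, 0.51, 0.51, and 0.25. With library weights they were 0.37, 0.32, 0.35, and 0.090. None of the 4 genes was called in any of these fits, with adjusted p from 0.104 to 0.846 in limma.

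Among ATRX CT tumors, the 6 proteases were lower in NSG than in Balb/c mice by a median of −1.89 on the log2 scale, beside −0.0084 over all genes. This comparison and the knock-down comparison in Balb/c mice share the Balb/c ATRX CT tumors, and the difference between hosts was part of the choice of genes, so no test is given. *Tpsab1* differed most, by −4.12 ± 0.37 (22.8-fold lower by mean FPKM), and 12 of the 14828 genes tested (0.0809%) were at least as low. The other differences, NSG minus Balb/c, were −1.97 ± 0.51 for *Tpsb2* (3.81-fold lower), −1.96 ± 0.59 for *Mcpt4*, −1.81 ± 0.54 for *Cpa3*, −1.54 ± 0.57 for *Cma1*, and −1.01 ± 0.29 for *Mcpt2*. *Tpsb2*, *Tpsab1*, and *Cpa3* did not overlap between hosts, beside 4.72% of all genes lower without overlap, and each of the other 3 overlapped in 1 of 20 pairs of tumors.

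Among ATRX KD tumors the picture was different, and 5 of the 6 proteases had the higher mean in NSG mice. Differences, NSG minus Balb/c, were 0.79 ± 0.35 for *Cma1*, 0.68 ± 0.27 for *Cpa3*, 0.55 ± 0.16 for *Mcpt2*, 0.54 ± 0.36 for *Mcpt4*, and 0.47 ± 0.32 for *Tpsb2*. *Mcpt2* alone did not overlap, beside 3.05% of all genes higher without overlap, with the Balb/c values no higher than the floor. *Tpsab1* went the other way, by −1.59 ± 0.47 (3.98-fold lower in NSG mice), with overlap in 1 of 20 pairs, and 87 of 14669 genes (0.593%) were at least as low.

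**Figure D2:**
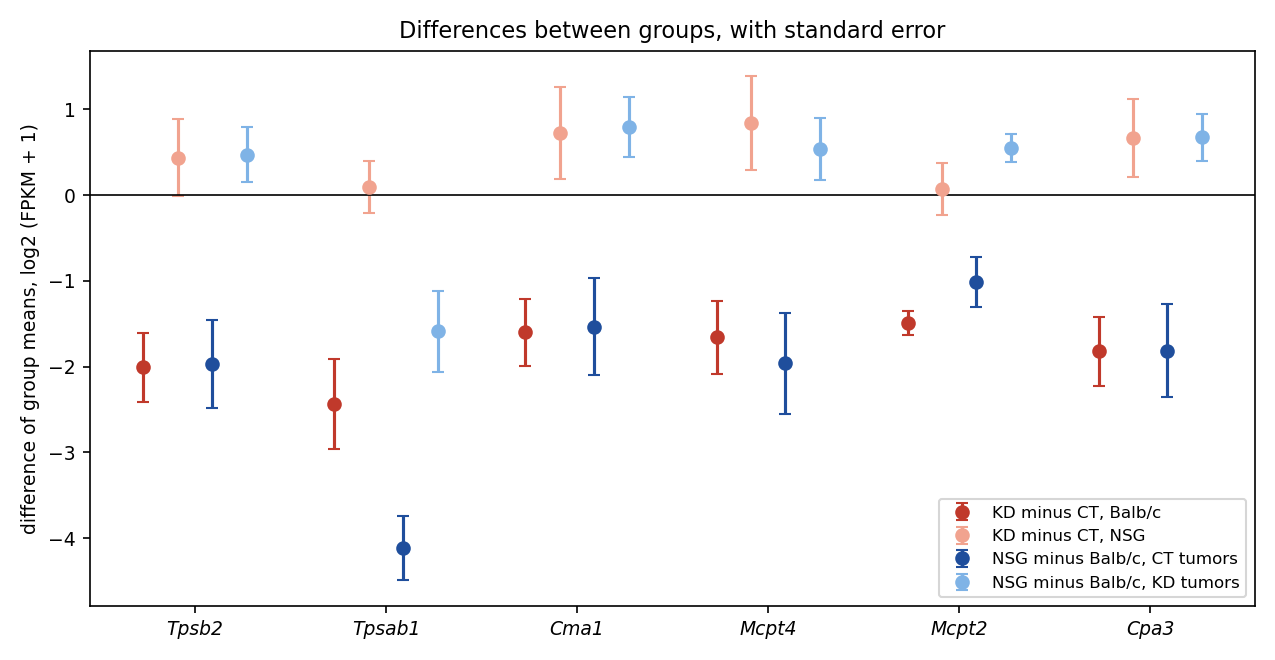
Difference of group means in log2 (FPKM + 1) for each protease on the horizontal axis, with the standard error from the SDs of both groups. Colors give the 4 comparisons; *Tpsab1* is the gene that is below 0 in both host comparisons, at −4.12 in CT tumors and −1.59 in KD tumors.

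The tryptases differed between hosts in their ratio within a tumor, a measure in which a shared change in mast cell number cancels. The level of *Tpsab1* divided by that of *Tpsb2* ranged from 1.15 to 1.59 (median 1.26) with ATRX CT and from 0.606 to 1.35 (median 1.01) with ATRX KD in Balb/c mice. In NSG mice it was between 0.112 and 0.487 (median 0.193) with ATRX CT and between 0.154 and 0.250 (median 0.175) with ATRX KD. Each NSG tumor was thus below each Balb/c tumor. The ratio was 5.55-fold lower in NSG mice among ATRX CT tumors (log2 difference −2.47 ± 0.40) and 5.13-fold lower among ATRX KD tumors (−2.36 ± 0.27), as geometric means. Leaving out any 1 tumor gave −2.73 to −2.20 and −2.58 to −2.19. The share of *Tpsab1* in the summed FPKM of the 6 proteases was 23.9% to 33.2% in Balb/c ATRX CT tumors, 12.9% to 24.5% in Balb/c ATRX KD tumors, 2.89% to 13.2% in NSG ATRX CT tumors, and 3.32% to 6.0% in NSG ATRX KD tumors.

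The other abundant proteases kept to a narrow range of ratios. *Mcpt4* divided by *Cpa3* was between 0.718 and 1.65 over the 18 tumors, *Tpsb2* divided by *Cpa3* between 0.999 and 1.57, and *Cma1* divided by *Cpa3* between 0.910 and 1.68. *Cma1* divided by *Mcpt4* was between 0.806 and 1.57, and was higher in NSG than in Balb/c ATRX CT tumors without overlap, by 0.47 ± 0.12 on the log2 scale. Between the NSG groups, 7 ratios were compared by exact permutation tests (two-sided), and the smallest p was 0.0238 for *Tpsb2* to *Cpa3* (median 1.29 with ATRX CT and 1.05 with ATRX KD), or 0.167 after adjustment for the 7 ratios. The p for *Tpsab1* to *Tpsb2* was 0.397 in the exact permutation test (0.556 adjusted).

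**Figure D3:**
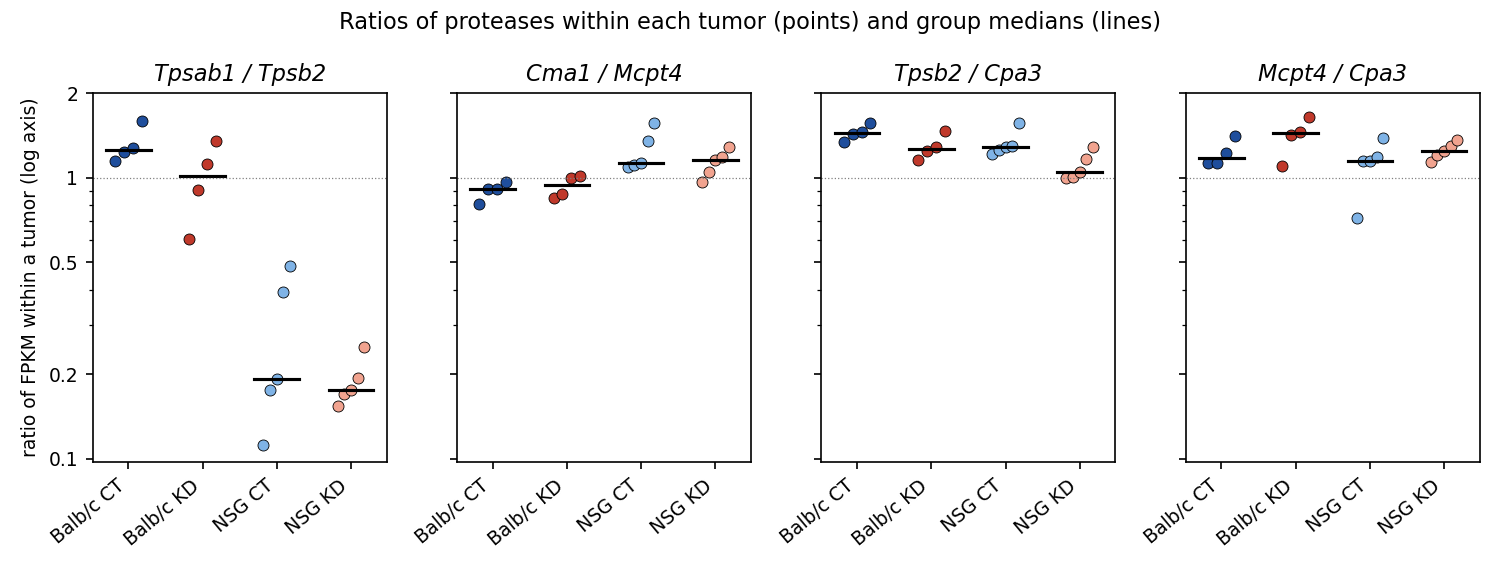
Ratio of 2 proteases' FPKM within each tumor on a log axis, by group, with lines at the group medians. *Tpsab1* to *Tpsb2* is at medians of 1.26 and 1.01 in Balb/c and 0.193 and 0.175 in NSG groups, whereas the 3 other ratios lie between 0.718 and 1.65 in every tumor.

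The proteases also varied together between tumors of a group. In Balb/c ATRX CT tumors, mouse 41 was highest for 5 of the 6 genes and mouse 45, the tumor with keratinocyte signal, lowest for 5. In Balb/c ATRX KD tumors mouse 60 was highest for all 6. In NSG ATRX CT tumors mouse 5 was highest for 5 and mouse 2 lowest for 4, and in NSG ATRX KD tumors mouse 26 was lowest for 5. The summed level of the 6 genes ranged from 173 to 414 FPKM and from 41.8 to 106 FPKM in the Balb/c ATRX CT and ATRX KD groups, and from 20.9 to 119 FPKM and from 54.6 to 105 FPKM in the NSG groups.

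In the 10 NSG tumors, which overlapped between groups, the 6 pairs formed by *Tpsb2*, *Cma1*, *Mcpt4*, and *Cpa3* had Pearson r between 0.970 and 0.989 and Spearman rho between 0.915 and 0.976. Their covariation was known when the genes were chosen, so it is a description and no test is given. These pairs kept r between 0.925 and 0.978 without the 2 tumors farthest from the median of 1 gene of the pair. For deviations from the NSG group means, r was between 0.973 and 0.987. *Tpsab1* followed the 4 genes less closely, with r between 0.530 and 0.626, and closer by rank, with rho of 0.770 for *Tpsb2*, 0.770 for *Mcpt4*, 0.697 for *Cpa3*, and 0.685 for *Cma1*. Without the 2 tumors farthest from the median of *Tpsb2*, r of *Tpsab1* and *Tpsb2* rose from 0.626 to 0.901. *Mcpt2* had r between 0.625 and 0.702 with the 4 genes, and rho between 0.418 and 0.612. For *Mcpt2* and *Mcpt4*, r fell from 0.649 to 0.160 without the 2 tumors farthest from the median of *Mcpt4*. It was 0.699 for deviations from the group means. For *Mcpt2* and *Cpa3*, where tumors were left out by *Mcpt2*, r went from 0.625 to 0.593, so the result depends on which tumors are left out. *Tpsab1* and *Mcpt2* were the loosest pair, with r of 0.374 and rho of 0.382. Values of 2 genes in a tumor share a library and its depth. In Balb/c mice the groups held 4 tumors each and did not overlap, and no pooled correlation is given.

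**Figure D4:**
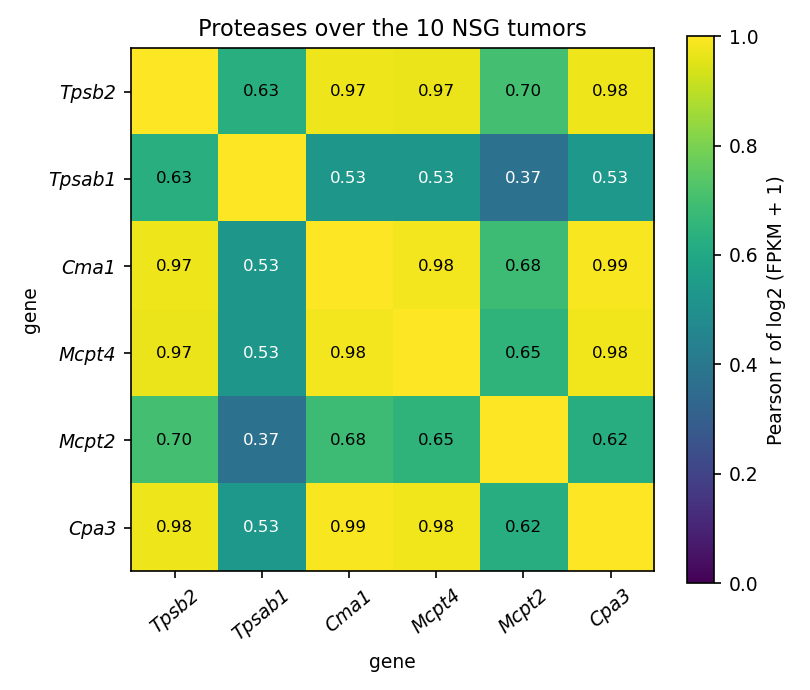
Pearson r of log2 (FPKM + 1) between each pair of proteases over the 10 NSG tumors, as color and number. The 4 genes *Tpsb2*, *Cma1*, *Mcpt4*, and *Cpa3* form pairs of at least 0.970, and *Tpsab1* and *Mcpt2* pairs of at most 0.702.

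Genes were ranked by how closely they followed the proteases within groups, as the correlation over 18 tumors between their deviations from the group means and the mean standardised deviation of the 6 genes. Of 14803 genes, 9 had r of at least 0.8, of which 4 were *Tpsb2*, *Cpa3*, *Mcpt4*, and *Cma1*, which enter the score themselves, and 5 were other genes. The 10 nearest genes outside the 6 were *Mrgprb1* (0.879), *Fcer1a* (0.860), *Gm16938* (0.819), *Ms4a2* (0.818), *Cyp11a1* (0.816), *Arhgap42* (0.793), *Cd200r3* (0.775), *Prdm8* (0.769), *Rprm* (0.768), and *Krt4* (0.763). *Fcer1a* and *Ms4a2* encode chains of the high-affinity IgE receptor, and *Mrgprb1* a Mas-related receptor. *Fcer1a* was at 7.88 ± 3.46 and 2.04 ± 1.18 FPKM in Balb/c ATRX CT and ATRX KD tumors (SD, n = 4 each) and at 3.52 ± 2.31 and 3.50 ± 1.01 FPKM in the NSG groups (SD, n = 5 each). *Gm16938* had group means of at most 0.129 FPKM and *Arhgap42* between 5.26 and 5.83 FPKM. Of the 10, 7 had their highest group mean in Balb/c ATRX CT tumors, and *Gm16938*, *Arhgap42*, and *Prdm8* did not. The share of all genes with this order was not counted. Of the 7, *Rprm* and *Krt4* were low, at group means of at most 0.475 and 0.244 FPKM.

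Around these genes, 85 related genes were listed, of which 79 are in the matrix. In Balb/c tumors 62 were tested and 0 were called in limma, with 16 at an unadjusted p under 0.05, beside 4.14% of all genes. Lower levels without overlap were found for 12 of them, beside 1.93% of all genes, and higher ones for 0, beside 1.25% of all genes. The lists were drawn up with results of these same tumors known, and the study singled out the IgE receptor chains among them, so the counts are not independent evidence. Among receptors and lineage genes, *Fcer1a* differed by −1.56 (standard error 0.35), *Mrgprb1* by −1.41 (0.25), *Mrgprb2*, the receptor for basic secretagogues, by −0.95 (0.23), and *Ms4a2* by −0.86 (0.19). Among granule storage genes, *Slc18a2*, the vesicular monoamine transporter, differed by −0.69 (0.16), *Hs6st2*, a heparan sulfate sulfotransferase, by −0.41 (0.12), and *Tph1*, which starts serotonin synthesis, by −0.32 (0.11). *Cxcl12*, a chemokine, differed by −0.79 (0.13), and among substrates and receptors *Mmp2* by −0.89 (0.23), *F2rl2* by −0.81 (0.21), and *Edn1* by −0.81 (0.26), each without overlap.

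Some other mast cell genes, chosen after their values were seen, did not go with the proteases in Balb/c tumors. *Kit*, the receptor for stem cell factor, was at 4.66 ± 1.71 and 4.28 ± 2.29 FPKM in ATRX CT and ATRX KD tumors (SD, n = 4 each), and *Hdc*, which makes histamine, at 6.04 ± 1.32 and 6.82 ± 2.67 FPKM. *Gata2* was at 2.20 ± 0.80 and 2.19 ± 0.93 FPKM. Their log2 differences were −0.14, 0.09, and −0.02, with adjusted p = 0.999 in limma for each. These genes are also expressed by other cells, whose part was not tested. The 7 mast cell markers other than the proteases summed to between 20.7 and 40.6 FPKM with ATRX CT in Balb/c mice. With ATRX KD they summed to between 9.64 and 21.9 FPKM there. In the NSG groups the sums were between 5.97 and 15.4 FPKM and between 10.2 and 16.8 FPKM. *Kit*, *Hdc*, and *Gata2* are part of this list, as are *Fcer1a*, *Ms4a2*, *Mrgprb1*, and *Mrgprb2*. The mean of log2 (FPKM + 1) over the 7 genes did not overlap in Balb/c mice. It was 1.76 to 2.59 with ATRX CT and 1.13 to 1.66 with ATRX KD. In NSG mice it overlapped, at 0.772 to 1.47 and 1.14 to 1.51.

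In NSG tumors 57 related genes were tested, and 2 were called, beside 0.464% of all genes. *Ltc4s*, which makes leukotriene C4, was lower with ATRX KD, from 67.5 ± 20.8 to 30.6 ± 10.4 FPKM (SD, n = 5 each; log2 difference −1.13, adjusted p = 0.0239 in limma). Macrophage markers had the lower median sum with ATRX KD too, with overlap: they summed to between 3078 and 4251 FPKM (median 3914) with ATRX CT and between 1960 and 3495 FPKM (median 2425) with ATRX KD, and their part in the level of *Ltc4s* was not tested. *Cpa4*, a carboxypeptidase of the same family as *Cpa3*, was higher, at 0.618 ± 0.534 and 2.73 ± 1.57 FPKM (log2 difference 1.16, adjusted p = 0.0422 in limma), with overlap. The call on *Cpa4* held in 1 of the 10 fits that left out a tumor (without ATRX CT mouse 3), with adjusted p up to 0.0839 in limma. That on *Ltc4s* held in 7, and was lost without ATRX CT mouse 2 (−0.98, under the fold threshold), ATRX KD mouse 28 (adjusted p = 0.0674 in limma), and ATRX KD mouse 30 (adjusted p = 0.0715 in limma). *Srgn*, which encodes serglycin, and *Gata2* passed the adjusted p but not the fold threshold, at −0.75 (adjusted p = 0.0266 in limma) and 0.52 (adjusted p = 0.0134 in limma), and were chosen after their values were seen. For *Srgn*, too, the part of macrophages was not tested.

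Between hosts, 11 of 63 related genes were called lower in NSG ATRX CT tumors, beside 0.883% of all genes, and 0 higher. Of these 7 lie in the chymase locus: *Gzmf* (−6.68), *Gzmd* (−6.18), *Gzmg* (−6.08), *Gzmc* (−5.76), *Gzme*, *Gzmb*, and *Ctsg*, granzymes of cytotoxic lymphocytes and the neutrophil protease cathepsin G. *F2rl2* (−1.81), *Mrgprb1* (−1.71), *Kit* (−1.40), and *Mrgprb2* (−1.08) were the other 4. *Gzmf* was at 129 ± 77.9 and 129 ± 114 FPKM in the Balb/c groups (SD, n = 4 each) and at most 0.0643 FPKM in NSG tumors, in the same locus as *Mcpt4* and *Cma1*, which were expressed in both hosts. In ATRX KD tumors 6 of 63 were called lower, all granzymes, beside 1.12% of all genes, and *Cpxm1*, a carboxypeptidase-like gene, was called higher, as were 0.266% of all genes (1.24, adjusted p = 0.00369 in limma). Cytotoxic lymphocyte markers summed to between 68.8 and 356 FPKM in Balb/c tumors and at most 2.20 FPKM in NSG tumors.

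**Figure D5:**
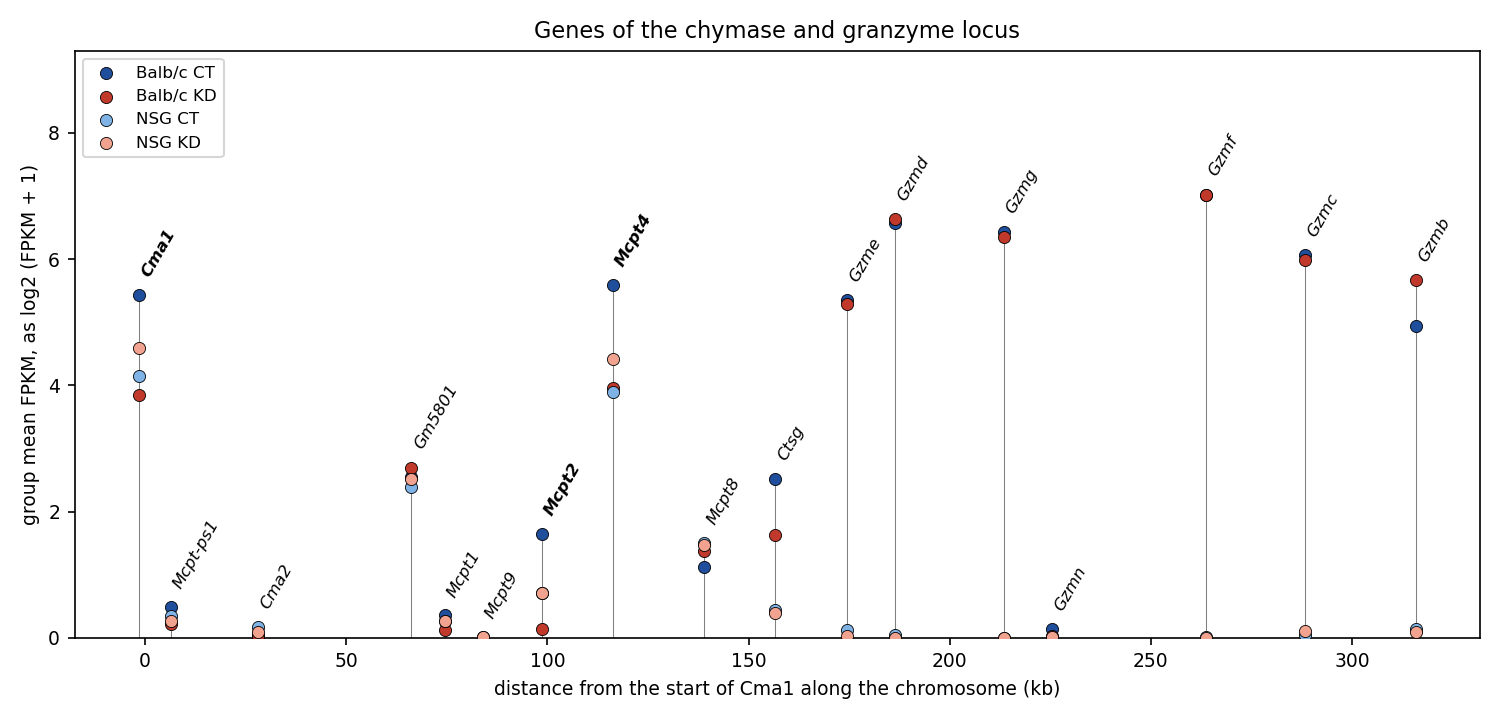
Group mean level, as log2 (FPKM + 1), of the genes around the chymases against their distance from the start of *Cma1* in kb. Members of the protease group are in bold. *Cma1* and *Mcpt4* are highest in Balb/c CT tumors and present in all groups, *Mcpt1*, *Mcpt9*, and *Cma2* have group means of at most 0.281 FPKM, and *Gzmb* to *Gzmg* are present in both Balb/c groups and near 0 in both NSG groups.

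On the far side of *Tpsb2*, its neighbor *Tpsg1*, a transmembrane tryptase, had group means of at most 0.195 FPKM. On that of *Tpsab1*, the closest genes, *Prss29* and *Prss28*, had no row in the matrix, and *Prss34*, a basophil protease and the next gene, had group means of at most 0.0670 FPKM. Basophil markers, of which *Mcpt8* was at group means between 1.18 and 1.83 FPKM, summed to between 24.6 and 73.2 FPKM in Balb/c ATRX CT, 32.8 and 58.0 FPKM in Balb/c ATRX KD, 30.9 and 57.1 FPKM in NSG ATRX CT, and 23.0 and 36.9 FPKM in NSG ATRX KD tumors. *Mcpt8*, *Prss34*, and *Cd200r3* were a small part of these sums. In Balb/c mice *Cd200r3* was at 0.948 to 1.57 FPKM with ATRX CT and lower, at 0.282 to 0.517 FPKM, with ATRX KD, without overlap. The sums overlapped between the Balb/c groups. Most of each sum came from the other genes of the list, *Il3ra*, *Itga2*, *Ccl3*, and *Il6*. This overlap therefore does not describe *Mcpt8*, *Prss34*, and *Cd200r3*. Macrophage markers also overlapped, from 2588 to 4212 and from 2168 to 3662 FPKM in the Balb/c ATRX CT and ATRX KD tumors. The sums of adipocyte markers did not, at 79.1 to 90.1 and 125 to 221 FPKM, and went the other way from the proteases. As a mean of log2 (FPKM + 1) over the same 7 genes, adipocyte markers did overlap, at 1.25 to 1.55 and 1.38 to 2.29. Their part in the protease levels was not tested.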

How the data were processed

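RNA from 18 K7M2 tumors in 4 groups was analysed. The authors made stranded, ribo-depleted libraries, aligned reads of 75 nt to mm10 with STAR 2.6.0c, removed low-quality and duplicate reads, and quantified RefSeq genes with Cufflinks 2.2.1. The deposited values are log2 (FPKM + 1), with 92 spike-ins beside the 20878 genes. No scaling between libraries beyond FPKM is given in the sources used here. The base of the log was settled from the values, since FPKM times length summed to between 1.06 and 1.09 times the expected total with base 2. The deposited annotation gave coordinates.

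FPKM were used as deposited. Depth was estimated from the steps of low values, and 34.7% to 39.3% of these lay within 0.1 of a whole fragment, so reads were not recovered and no count test was run. Floors cover counting error only. Groups were compared with limma 3.58.1 (trend) in R 4.3.3, over genes that averaged 0.1 FPKM or more across the compared tumors, with a pseudocount of 1 and Benjamini-Hochberg adjustment. Genes with an adjusted p under 0.05 and at least a 2-fold difference were called. The steps were tested on simulated data. Single values were compared by exact permutation tests (scipy 1.17.1), and correlations were described without a test. Each tumor came from its own mouse, and p-values measure the spread between mice.

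The 6 genes and all lists were chosen with earlier results of these data known. Related genes named are those called (at most 4 for each list and comparison, others being given by name) and those without overlap in Balb/c mice (at most 4 for each list). Alternatives were another pseudocount, filter, scaling, and fold threshold, removal of the trend with transcript length, library weights, a fit of all groups, and leaving out each tumor.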

Additional observations from a re-analysis of the deposited data

How the results depend on the processing

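No protease was called in NSG mice under any alternative run, and adjusted p in limma ranged from 0.104 (*Mcpt4*) to 0.988 (*Mcpt2*). *Mcpt2* could not be tested with a mean of at least 1 FPKM. The difference in NSG mice turned for *Tpsab1*, which is 0.093 with all tumors, to −0.094 without ATRX CT mouse 1 and −0.064 without ATRX KD mouse 27 (range without 1 tumor −0.094 to 0.26). For *Mcpt2*, at 0.066, it turned to −0.28 with library weights, and to −0.066 without ATRX CT mouse 2, −0.070 without mouse 3, −0.026 without ATRX KD mouse 27, and −0.0099 without ATRX KD mouse 29 (range without 1 tumor −0.070 to 0.28). Over fits that left out 1 tumor, the median difference of the 6 proteases was −1.98 to −1.50 in Balb/c mice, −2.16 to −1.59 between hosts in ATRX CT tumors, and 0.447 to 0.744 in ATRX KD tumors, and the median pairwise r in NSG mice was 0.623 to 0.759. Related genes called in Balb/c mice were 2 with library weights (*Mrgprb1* and *Ms4a2*) and 1 with all groups in the fit (*Mrgprb1*), against 0. In NSG mice they were 1 without a filter, 1 with all groups in the fit, 7 without a fold threshold, and 0 to 2 without 1 tumor, against 2. Between hosts in ATRX KD tumors they were 11 without a fold threshold, against 7. The causes were not tested. Another 241 values were counted as kept, by direction, side of the threshold, or size of the move. They include counts of related genes called between hosts, which did move. In ATRX CT tumors these were 15 with a pseudocount of 0.1, 15 without a fold threshold, and 10 without a filter, against 11. In ATRX KD tumors they were 10 with library weights, against 7. No paired analysis was possible because the groups compared share no replicate number. Depth limits *Mcpt2*, at or under 3 fragments in 6 tumors.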
